A study of Mus musculus with 8 samples.

Results

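Homeobox genes outside the Hox clusters and Pax genes encode DNA-binding proteins that pattern the brain, eye, face, kidney and other organs. The 45 genes described here were chosen by name, as Six2 to Six6 and the Dlx, Lhx, Irx, Msx, Emx, Otx, En and Pitx families with Gbx2, Barx1 and 8 Pax genes, from 26212 annotated genes. The rule names families and uses no measured value, and the genes serve as a contrast to the 39 Hox genes. H3K4me3 ChIP-Seq was done in wild-type (wt) TC-1 mouse embryonic stem cells (mESCs), in menin-null mESCs of the line 3.2N, which carry a Men1 knockout, and in pancreatic islet-like endocrine cells (PILECs) grown in vitro from each line. The genetic background of all cells was 129S6/SvEvTac, and mESCs were freed of irradiated feeder fibroblasts before use. Each of the 4 conditions gave 1 H3K4me3 library and 1 input library, and each genotype was represented by 1 cell line. A difference between genotypes therefore cannot be told apart from a difference between these lines or between these cultures, and no test between conditions was possible.

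H3K4me3 is deposited at active promoters, and in stem cells also at silent developmental promoters, which often carry the Polycomb mark H3K27me3 as well. Menin is a subunit of the MLL1 and MLL2 complexes that methylate H3K4, and Hox genes are well known targets of these complexes. In the developing embryo the genes studied here are switched on in separate territories, such as Otx2 in the anterior brain, En1 and En2 at the border of midbrain and hindbrain, and Pax3 in the dorsal neural tube and neural crest.

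Promoters of this group were rich in CpG, the dinucleotide that marks CpG islands. Within 1 kb of the transcription start site (TSS) the 45 genes held a median of 120 CpG (72 to 195), against 59 over all genes, 89 over the Hox genes and 102 over 59 further homeobox genes outside the Hox clusters. In the 300 bases upstream of the 5' end of the gene, 34 of the 45 (75.6%) held at least 10 CpG, as did 46.7% of all genes. Stretches of this kind are printed for 5 promoters from NCBIM37 (mm9), 5' to 3' on the strand of the gene, with CpG in capitals. None overlaps an annotated exon. Pax3, chr1:78193710-78194009 (minus strand, 12 CpG), and Barx1, chr13:48758067-48758366 (plus strand, 34 CpG), had the lowest ratios of menin-null to wt PILECs among the genes marked in wt PILECs.
Pax3: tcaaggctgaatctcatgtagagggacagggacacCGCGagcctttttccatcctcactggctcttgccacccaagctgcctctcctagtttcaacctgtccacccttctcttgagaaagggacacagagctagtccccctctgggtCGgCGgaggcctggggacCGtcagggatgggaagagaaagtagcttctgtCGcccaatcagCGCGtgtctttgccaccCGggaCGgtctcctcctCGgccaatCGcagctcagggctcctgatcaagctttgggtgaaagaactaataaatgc
Barx1: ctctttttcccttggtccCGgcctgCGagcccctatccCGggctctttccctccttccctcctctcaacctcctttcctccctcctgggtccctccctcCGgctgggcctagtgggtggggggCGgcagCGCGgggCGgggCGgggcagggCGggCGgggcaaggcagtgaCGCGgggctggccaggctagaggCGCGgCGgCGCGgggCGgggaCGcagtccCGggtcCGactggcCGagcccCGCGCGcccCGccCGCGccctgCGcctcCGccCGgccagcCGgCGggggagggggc
Six2, chr17:86087595-86087894 (minus strand, 29 CpG), and Dlx3, chr11:94981103-94981402 (plus strand, 13 CpG), had the ratios nearest to no difference.
Six2: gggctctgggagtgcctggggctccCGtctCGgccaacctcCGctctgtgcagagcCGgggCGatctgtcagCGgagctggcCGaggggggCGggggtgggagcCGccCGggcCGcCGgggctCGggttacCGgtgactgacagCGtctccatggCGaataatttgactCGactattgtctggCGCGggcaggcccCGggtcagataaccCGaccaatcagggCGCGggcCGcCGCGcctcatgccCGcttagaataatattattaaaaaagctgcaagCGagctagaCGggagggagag
Dlx3: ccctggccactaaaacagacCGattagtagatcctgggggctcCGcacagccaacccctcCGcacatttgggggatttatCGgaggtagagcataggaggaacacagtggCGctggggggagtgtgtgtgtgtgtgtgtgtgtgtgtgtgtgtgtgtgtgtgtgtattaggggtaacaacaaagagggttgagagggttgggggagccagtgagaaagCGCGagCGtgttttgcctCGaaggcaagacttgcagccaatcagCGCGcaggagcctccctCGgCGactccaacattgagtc
Dlx5, chr6:6832086-6832385 (minus strand, 9 CpG), was at the opposite end, and was picked after its value was seen. Dlx1 had a higher ratio, but its stretch overlaps an exon and is not printed.
Dlx5: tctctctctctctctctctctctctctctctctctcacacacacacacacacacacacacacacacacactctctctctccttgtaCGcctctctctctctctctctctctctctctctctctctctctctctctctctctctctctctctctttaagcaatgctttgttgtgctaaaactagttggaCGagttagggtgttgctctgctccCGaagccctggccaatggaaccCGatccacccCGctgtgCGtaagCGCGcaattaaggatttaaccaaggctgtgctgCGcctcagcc
The median of such stretches was 17 CpG over the 45 genes and 8 over all genes. Dlx5 was thus below the group median but near that of all genes, and Barx1 and Six2 were above both. These promoters were picked by their ratios, so nothing is read from their CpG content.

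Values of the 4 H3K4me3 libraries are given in the order wt mESCs, menin-null mESCs, wt PILECs, menin-null PILECs. Totals were 2432377, 3517028, 18773635 and 17682677 tags, so the mESC values rest on far fewer tags. A level is the number of tags within 1 kb of the TSS per 1000000 tags of the library (RPM). Ratios are on the log2 scale after addition of 1 tag to both counts, and 95% intervals in square brackets are exact (Clopper-Pearson) limits of the 2 counts, which cover counting error only. The targeted exons 3 to 8 of Men1 held 17 and 22 input tags in wt mESCs and wt PILECs and 0 in each menin-null input, which allows up to 3 tags. The PILECs were checked against markers of islet cells. Of 14 islet genes 7 were marked by H3K4me3 in both PILEC libraries, among them Neurod1, Isl1 and Insm1, whereas Ins1, Ins2, Gcg, Sst, Iapp, Pdx1 and Pax4 were not (4 to 24 tags each). All 8 neural markers that could be placed were marked, with a summed level of 214 RPM in wt and 204 RPM in menin-null PILECs, as were 7 of 8 fibroblast markers (80.7 and 68.3 RPM), 4 of 5 endoderm markers (54.1 and 55.0 RPM, with log2 ratios from -0.44 at Cxcr4 to 1.05 at Gata4 and a median of 0.35), and none of 6 muscle or 5 liver markers. Of 10 mESC markers 5 were marked in wt and 4 in menin-null PILECs, and their summed level was 451 RPM in wt mESCs and 72.7 RPM in wt PILECs, and 574 and 74.5 RPM in menin-null cells. Many of these genes were marked in mESCs as well. In wt and menin-null mESCs the counts were 8 and 7 islet, 7 and 7 neural, 4 and 4 fibroblast and 5 and 4 endoderm markers. Islet genes summed to 118 and 149 RPM in mESCs and to 100 and 97.0 RPM in PILECs. Being marked in PILECs therefore does not by itself identify a cell type. The share of cell types in the PILEC cultures was not measured. A level per culture thus cannot be split into the number of cells carrying the mark and its level per cell.

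A promoter was called marked when H3K4me3 per base was at least 3 times the input around it and the lower limit of that ratio was above 1. Of the 45 genes 39, 40, 41 and 40 were marked in the 4 libraries, and 33 in all of them. The shares over all genes were 57.2%, 56.9%, 54.5% and 53.8%, and 51.5% for all 4 libraries. Hox genes differed between the PILEC libraries in this count, with 28 of 39 marked in wt and 9 in menin-null PILECs, after 20 and 24 in the mESCs. Gbx2, which patterns the anterior hindbrain, was marked in no library at its start (1.49 RPM in wt PILECs), and its highest 200-bp window in wt PILECs lay 2700 bp inside the gene. The group spanned a wide range of levels. In wt mESCs Six4 (51.8 RPM), Six5 (31.7 RPM), Dlx1 (27.5 RPM), Dlx2 (27.1 RPM) and En2 (25.9 RPM) were highest. In wt PILECs the order was Irx5 (42.0 RPM), Six4 (35.7 RPM), Irx2 (28.7 RPM), Lhx1 (27.2 RPM) and Irx3 (26.8 RPM).

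**Figure D1:**
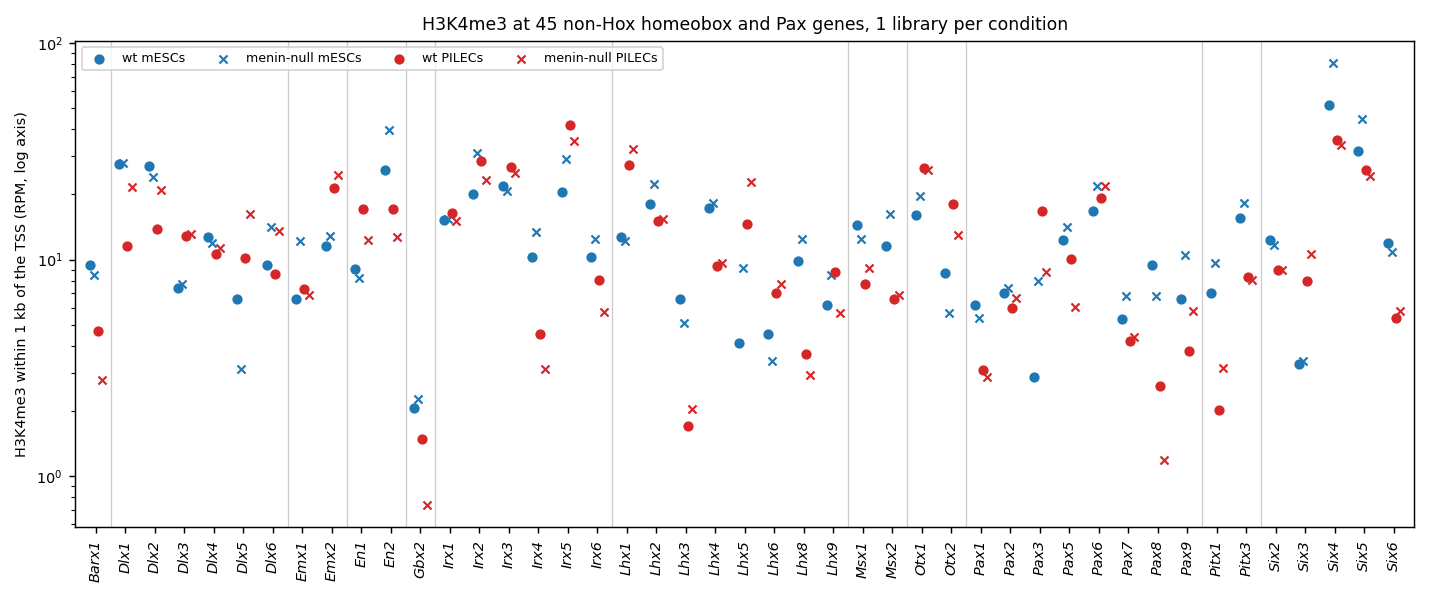
H3K4me3 within 1 kb of the TSS (RPM, log axis) at the 45 genes, with circles for wt and crosses for menin-null cells, blue for mESCs and red for PILECs, and vertical lines between families. The values run from 0.735 RPM at Gbx2 in menin-null PILECs to 81.0 RPM at Six4 in menin-null mESCs.

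In menin-null PILECs H3K4me3 was higher than in wt PILECs at some of these genes and lower at others, while most Hox genes were lower. The median log2 ratio of menin-null to wt PILECs was -0.00 over the 45 genes (-1.10 to 0.89), -0.06 over 24032 genes with at least 10 tags, and -1.35 over the 39 Hox genes. Only Pax8 was at least 2-fold lower and none was 2-fold higher, where 2.45% and 3.22% of all genes were. Among genes with at least 100 tags, which include 41 of the 45, 0 of the 41 passed 2-fold, and 0.852% of all such genes were lower and 0.0985% higher. Of the Hox genes 22 of 39 were at least 2-fold lower and 0 higher, with Hoxb8 lowest at -3.50. Smaller differences were common. Intervals were wholly below 0 at 13 of the 45 genes and wholly above 0 at 10, while 20.1% and 5.08% of all genes had such intervals. Set against the median of all genes, 11 of the 45 were below it and 11 above, as were 3345 and 2199 of the 24032 genes. These shares are not at like depth, since 41 of the 45 but only 14206 of the 24032 genes had at least 100 tags. Intervals are narrower at more tags. Of the 59 further homeobox genes, 3 (Barhl1, Bsx and Lbx1) were at least 2-fold lower, 0 were higher, and the median was -0.03. Their intervals were below 0 at 15 and above 0 at 9.

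**Figure D2:**
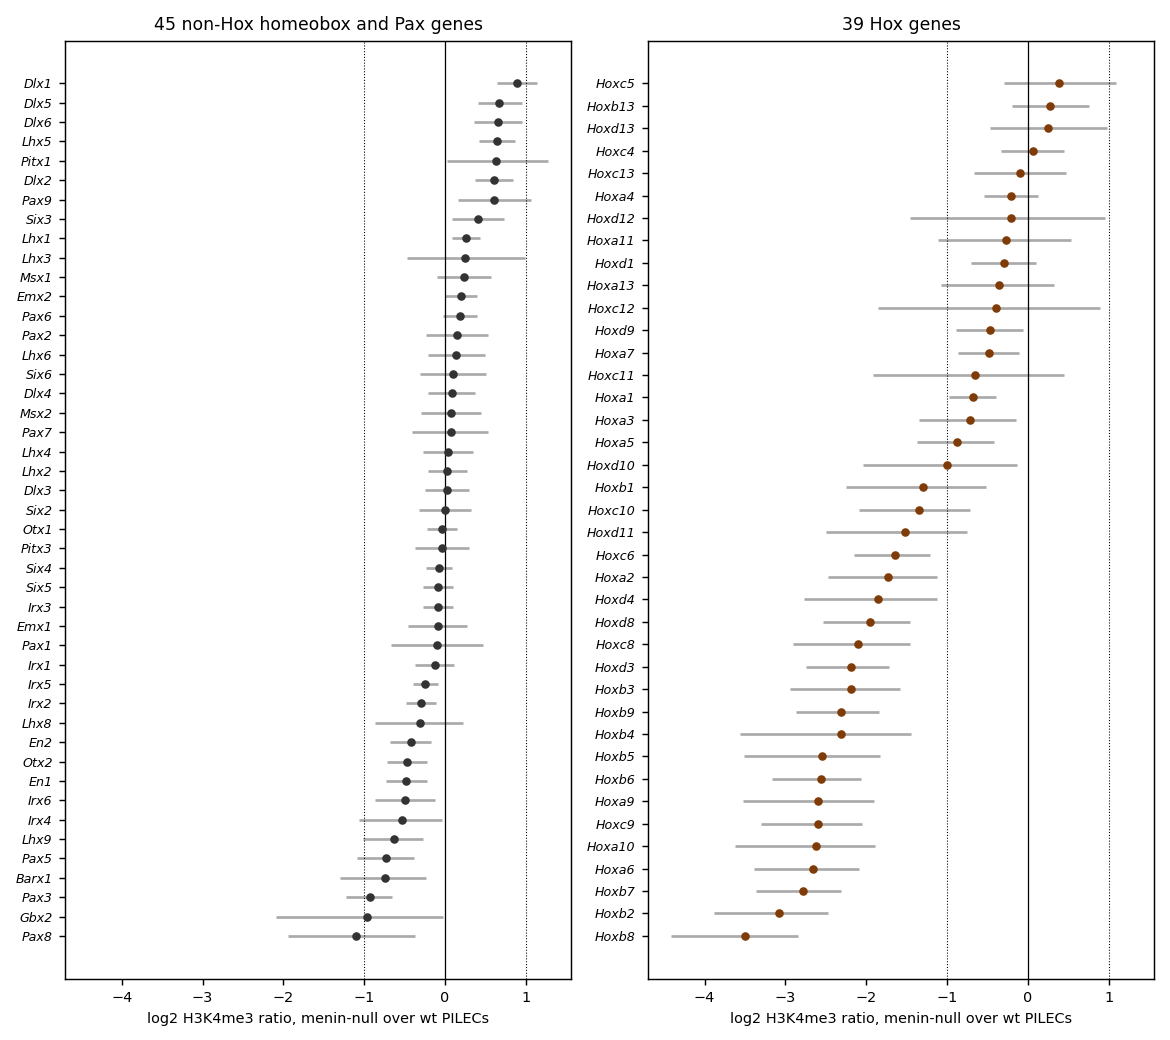
Log2 ratio of H3K4me3 in menin-null over wt PILECs (points) with 95% counting intervals (grey lines) for the 45 genes (left) and the 39 Hox genes (right), each sorted by ratio, with dotted lines at 2-fold. The 45 genes lie on both sides of 0, from -1.10 to 0.89, and the Hox genes reach -3.50.

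Of the 6 Dlx genes, 4 were among the highest ratios. Dlx1, Dlx2, Dlx5 and Dlx6 lie in 2 convergent pairs and act in the development of forebrain interneurons and the jaw. Dlx1 (TSS chr2:71368004) had 27.5, 27.9, 11.6 and 21.5 RPM, a log2 ratio in PILECs of 0.89 [0.65, 1.14]. The other pair member, Dlx2, had 27.1, 24.2, 13.8 and 21.0 RPM, a ratio of 0.61 [0.38, 0.84]. In RPM both were lower in wt PILECs than in either mESC library, and the menin-null PILECs lay between. Over input the menin-null PILECs were highest instead, with 17.2, 14.1, 9.94 and 19.5 times the input at Dlx1 and 16.9, 11.6, 14.1 and 26.5 times at Dlx2. Dlx5 had 6.58, 3.13, 10.1 and 16.2 RPM, a ratio in PILECs of 0.67 [0.41, 0.95], and Dlx6 had 9.46, 14.2, 8.58 and 13.5 RPM, a ratio of 0.65 [0.36, 0.95], or for Dlx6 0.05 in libraries thinned to the smallest total and 0.32 after division by input. Dlx3, which acts in skin and placenta, and its neighbour Dlx4 did not follow, with ratios of 0.03 [-0.24, 0.29] and 0.09 [-0.20, 0.38], and Dlx3 had 7.40, 7.68, 12.8 and 13.1 RPM.

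The same held over the stretches between the starts of each pair, which include parts of both genes. From 1 kb past the start of Dlx1 to 1 kb before that of Dlx2 (chr2:71369005-71383810) there were 510 H3K4me3 tags in wt and 903 in menin-null PILECs, a log2 ratio of 0.91 [0.75, 1.07]. Between the starts of Dlx5 and Dlx6 (chr6:6814335-6831067) 559 and 1054 tags were found, a ratio of 1.00 [0.85, 1.15]. Input over these stretches gave -0.05 [-0.39, 0.29] and -0.07 [-0.41, 0.27]. The stretch between the starts of Dlx3 and Dlx4 had 263 and 247 tags, a ratio of -0.00 [-0.26, 0.25]. In mESCs the intervals for the Dlx1 to Dlx2 stretch (0.18 [-0.50, 0.91]) and the Dlx5 to Dlx6 stretch (-0.25 [-1.02, 0.55]) included 0, on 29 and 48 and on 27 and 33 tags. That of the Dlx3 to Dlx4 stretch, -0.68 [-1.31, -0.07] on 49 and 44 tags, was below 0. The summed level of the neural markers was 214 RPM in wt and 204 RPM in menin-null PILECs, and the part of cell types in the Dlx ratios was not tested.

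LIM homeobox genes, which specify neuron types, the pituitary and the kidney, were divided. Lhx5, a gene of the hippocampus and hypothalamus, had 4.11, 9.10, 14.6 and 22.8 RPM, a PILEC ratio of 0.64 [0.42, 0.87]. It was higher without menin in both stages. Lhx1, needed for head and kidney formation, had 12.7, 12.2, 27.2 and 32.6 RPM, a PILEC ratio of 0.26 [0.08, 0.43]. Lhx9, a gene of the early gonad, was lower in menin-null PILECs, with 6.17, 8.53, 8.79 and 5.66 RPM, a ratio of -0.63 [-1.01, -0.27], or -0.19 in thinned libraries. At the starts used, the intervals of Lhx2, Lhx3, Lhx4, Lhx6 and Lhx8 included 0. At Lhx2, which acts in eye and forebrain, the start used gave 0.03, but an upstream group of starts (chr2:38195008) had 164 and 101 tags, a ratio of -0.61 [-0.99, -0.25]. The second starts of Lhx3 (chr2:26062095, 28 and 12 tags, -1.07 [-2.25, -0.11]) and Lhx8 (chr3:153987847, 21 and 7 tags, -1.37 [-2.98, -0.21]) were lower as well, on few tags.

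Six2 to Six6 act in eye, forebrain, muscle and kidney. Six3, the forebrain and eye member, had 3.29, 3.41, 7.99 and 10.6 RPM, with a PILEC ratio of 0.40 [0.09, 0.72], or 0.11 after division by input. The other 4 were close to 0, from -0.09 at Six5 to 0.10 at Six6, and their intervals included 0. Six4 had 51.8, 81.0, 35.7 and 33.9 RPM, so this highly marked promoter had a PILEC ratio of -0.07 [-0.24, 0.09]. Six5 had 31.7, 44.6, 25.8 and 24.3 RPM, with ratios of 0.49 [0.09, 0.91] in mESCs and -0.09 [-0.28, 0.10] in PILECs.

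The Pax genes ran from -1.10 to 0.60 in PILECs, with a median of -0.01. Pax8, a regulator of thyroid and kidney, had 9.46, 6.82, 2.61 and 1.19 RPM. Its PILEC ratio of -1.10 [-1.95, -0.37] rests on 49 and 21 tags, neither PILEC library was called marked there, and the ratio became 0.41 in libraries thinned to the smallest total. Pax3 (TSS chr1:78193413) had 2.88, 7.96, 16.8 and 8.77 RPM, with 315 and 155 tags in wt and menin-null PILECs, a ratio of -0.93 [-1.22, -0.65]. Its level was thus highest in wt PILECs, also over input (1.75, 5.96, 15.3 and 10.2 times), and the menin-null libraries of both stages were close to each other in RPM but not over input. Pax5, known from B cells and the midbrain, had 12.3, 14.2, 10.1 and 6.05 RPM, a ratio of -0.73 [-1.09, -0.38]. Pax9, a gene of teeth and pharyngeal pouches, went the other way, with 6.58, 10.5, 3.78 and 5.77 RPM, a ratio of 0.60 [0.16, 1.07], but its 5' start (chr12:57792754), with 19 tags in each PILEC library, gave 0.09 [-0.91, 1.08] and thinned libraries 0.11. At the starts used, intervals of Pax1, Pax2, Pax6 and Pax7 included 0. Pax6, required in eye, brain and islet cells, had 19.3 and 21.9 RPM at its main start, a ratio of 0.19 [-0.02, 0.40]. Another Pax6 start (chr2:105512017) had 53 and 99 tags, a ratio of 0.98 with an interval above 0, whereas its other 4 starts gave -0.41 to 0.09 with intervals that included 0, among them chr2:105518548 with 218 and 171 tags, a ratio of -0.26 [-0.56, 0.03]. The second start of Pax2 (chr19:44834408), a kidney gene, had 92 and 48 tags, a ratio of -0.84 [-1.39, -0.33].

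En1 and En2 pattern the midbrain and hindbrain. En1 had 9.04, 8.25, 17.2 and 12.3 RPM, a PILEC ratio of -0.48 [-0.74, -0.23], and En2 had 25.9, 39.5, 17.2 and 12.8 RPM, a ratio of -0.42 [-0.68, -0.17]. Input within 5 kb of En1 held 106 and 65 tags in wt and menin-null PILECs, and division by it turned the En1 value to 0.15. Otx2 had 21, 20, 338 and 230 tags, a PILEC ratio of -0.47 [-0.72, -0.22], and its second group of starts gave -0.69 [-1.07, -0.33]. Otx1, its relative in the cortex, had 16.0, 19.6, 26.5 and 25.8 RPM, a PILEC ratio of -0.03 [-0.22, 0.15]. The 6 Irx genes of the Iroquois family ran from -0.53 at Irx4, a gene of the heart ventricle, to -0.09 at Irx3, and 14393 of the 24032 genes had ratios below 0. The intervals of Irx2, Irx4, Irx5 and Irx6 were below 0 and those of Irx1 and Irx3 included it. Under other settings Irx1 reached 0.10, Irx3 0.15 and Irx4 0.10, and the flanks of Irx4, 1 to 5 kb from the start, had 41 and 72 tags, a ratio of 0.88 [0.33, 1.49]. Irx4 had 10.3, 13.4, 4.53 and 3.11 RPM, Irx3 had 21.8, 20.8, 26.8 and 25.2 RPM, and Irx6 had 10.3, 12.5, 8.04 and 5.71 RPM. In RPM Irx4 and Irx6 were thus lowest in menin-null PILECs. Over input this held for Irx4 and not for Irx6, which was lowest in wt mESCs and had 5.09 and 5.17 times the input in menin-null mESCs and PILECs. Irx5, which had the highest RPM of the group in both PILEC libraries, had a ratio of -0.25 [-0.40, -0.09].

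Among the remaining genes Barx1, which acts in stomach and teeth, had 9.46, 8.53, 4.69 and 2.77 RPM, a PILEC ratio of -0.75 [-1.29, -0.24], or -0.29 in thinned libraries. Gbx2, unmarked at its start, had 2.06, 2.27, 1.49 and 0.735 RPM, with 28 and 13 PILEC tags, a ratio of -0.96 [-2.09, -0.02]. Its flanks, 1 to 5 kb from the start, held 167, 414, 446 and 322 tags, a ratio of 0.77 [0.52, 1.05] in mESCs and -0.38 [-0.59, -0.17] in PILECs, so most Gbx2 tags lay outside the window at the start. Pitx1, a gene of the hindlimb and pituitary, had 6.99, 9.67, 2.02 and 3.17 RPM, a PILEC ratio of 0.63 [0.03, 1.28] on 38 and 56 tags. At the 5' end of Pitx1 (chr13:55937553) there were 17 and 13 tags, a ratio of -0.28 [-1.46, 0.83], and thinned libraries gave -0.22 at the start used. Emx2, a gene of the cortex, had 11.5, 12.8, 21.4 and 24.6 RPM, a ratio of 0.20 [0.00, 0.40], and was higher in PILECs than in mESCs. Emx1, Pitx3, Msx1 and Msx2 had intervals that included 0. Emx1 had 6.58, 12.2, 7.30 and 6.84 RPM, and Pitx3, a gene of the lens and dopamine neurons, had 15.6, 18.2, 8.31 and 8.09 RPM. Msx1 and Msx2 are regulators of the face and limb. Msx1 had 14.4, 12.5, 7.72 and 9.11 RPM, a ratio of 0.24, and Msx2 had 11.5, 16.2, 6.55 and 6.90 RPM, a ratio of 0.07.

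The length of the marked stretch differed in both directions as well. Width was the length covered by 200-bp windows with at least 0.75 RPM within 5 kb of the start. Without menin 6 of the 45 genes were at least 1000 bp wider and 8 were at least 1000 bp narrower, where 0.229% and 1.67% of the genes marked in either library were. These shares are not matched for width, and the 45 genes were more often broad, as given below. They therefore cannot be read as a trait of the 45 genes. The wider ones were Dlx1 (1800 to 4200 bp), Dlx2 (2200 to 3400 bp), Dlx5 (1800 to 3800 bp), Dlx6 (2800 to 5800 bp), Lhx5 (4200 to 6000 bp) and Six3 (2000 to 3600 bp), of which the Dlx genes form neighbouring pairs. The narrower ones were Emx2, En1 (4600 to 2200 bp), En2 (4600 to 3400 bp), Irx3, Lhx2, Lhx9, Pax3 (2600 to 1400 bp) and Pax5 (1600 to 400 bp). Widths were not divided by input, which within 5 kb of En1 held 106 and 65 tags in wt and menin-null PILECs. Emx2 was narrower although its level at the start was slightly higher, so width and level did not always go together. Broad stretches were frequent, as 11 of the 45 genes were at least 4000 bp wide in wt PILECs and 8 in those without menin, against 3.51% and 2.55% of all marked genes. Lhx1 was widest, with 7800 and 7600 bp, followed by Irx5 with 7200 bp in both. Another annotated gene starts within 2 kb of Lhx1 (1500016L03Rik), Irx5 (4933436C20Rik), Irx3 (D230002A01Rik), Dlx4 (A730090H04Rik), Dlx6 (Dlx6os1), Emx2 (Emx2os) and Six6 (4930447C04Rik). Levels and widths at these genes can therefore hold tags of both promoters. The highest Irx5 window lay upstream, at -1300 bp in wt and -2100 bp in menin-null PILECs.

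In the flanks, 1 to 5 kb from the TSS, 2 of the 45 genes were at least 2-fold lower in menin-null PILECs and 0 were higher (0.733% and 0.781% of all genes). These were Pax3, with 303 and 119 tags, a ratio of -1.25 [-1.58, -0.95], and Pax8, with 82 and 34 tags, a ratio of -1.16 [-1.81, -0.59]. At Pax3 the flanks thus had a lower ratio than the start. Dlx6 had 364 and 680 flank tags, a ratio of 0.99 [0.80, 1.18], and Dlx5 230 and 428, a ratio of 0.98 [0.75, 1.22]. These flanks share tags with the Dlx5 to Dlx6 stretch above, so they are not a separate result. Six3 flanks gave 0.69 [0.49, 0.90], while those of En1 (-0.82 [-1.02, -0.63]) and En2 (-0.71 [-0.90, -0.52]) were lower. Flanks were not divided by input. Within 5 kb, input held 106 and 65 tags at En1 and 78 and 91 at Six3, in wt and menin-null PILECs. The part of input in these flank ratios was not tested. Over the 39 Hox genes 27 flanks were at least 2-fold lower, and the median was -1.51, against -0.16 over the 45 genes.

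**Figure D3:**
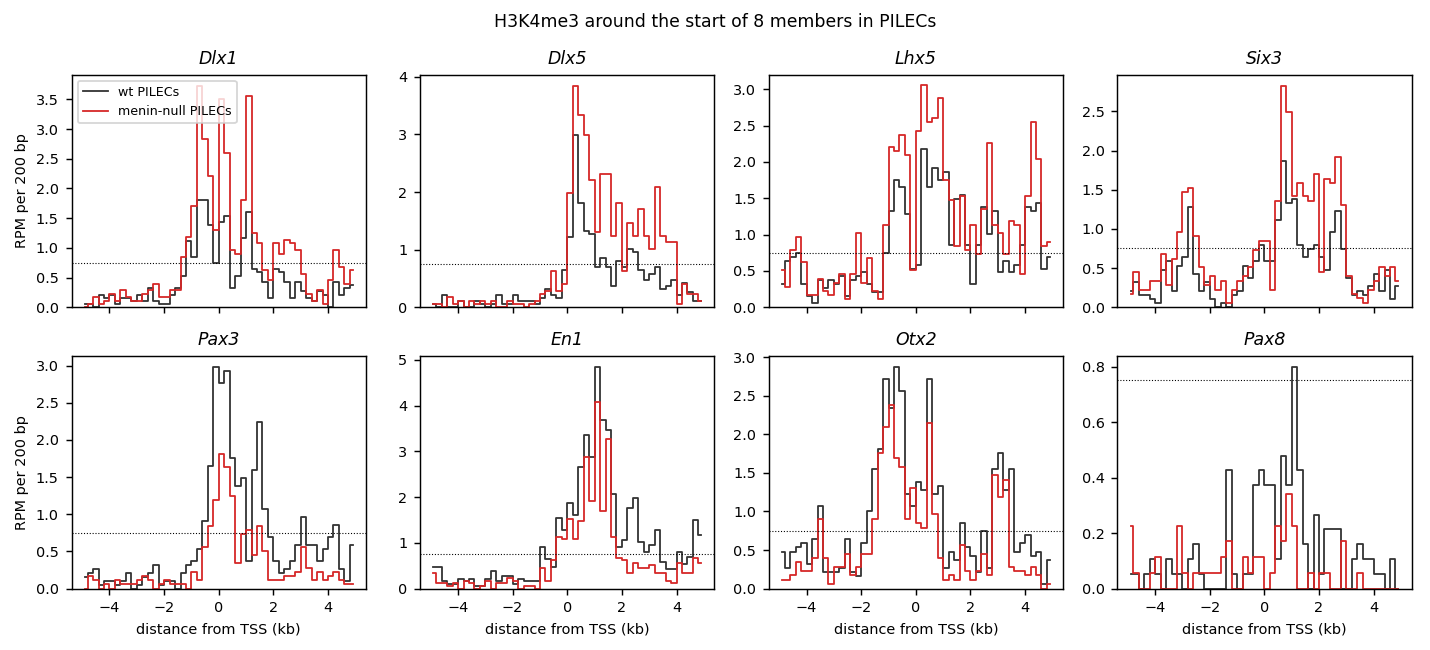
H3K4me3 (RPM per 200 bp) against the distance from the TSS in kb, with positive distances inside the gene, for 8 genes in wt (black) and menin-null (red) PILECs, each panel with its own vertical scale and a dotted line at 0.75 RPM. The menin-null line is above the wt line over much of Dlx1, Dlx5, Lhx5 and Six3 and below it over much of Pax3 and En1. Lines are not divided by input, which within 5 kb of En1 held 106 tags in wt and 65 in menin-null PILECs.

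In mESCs the genotypes differed less clearly, on 13 to 411 tags a gene. The median log2 ratio of menin-null to wt mESCs was 0.13 over the 45 genes and 0.21 over all 16171 genes with at least 10 tags, and tags near starts made up 51.4% of the menin-null library and 43.5% of the wt library. Scaling by those tags lowers every ratio by 0.24 and gave a median of -0.11 over the 45 genes. Dlx5 was at least 2-fold lower, and Pax3 and Lhx5 were at least 2-fold higher, where 2.02% and 1.27% of all genes were. Dlx5 had 16 tags in wt and 11 in menin-null mESCs, a ratio of -1.03 whose interval [-2.33, 0.13] included 0. Pax3 had 7 and 28 tags, a ratio of 1.33 [0.24, 2.91], and Lhx5 had 10 and 32 tags, a ratio of 1.05 [0.09, 2.34]. Under other settings the Pax3 ratio fell as low as 0.39, and its mESC flanks had 10 and 5 tags, a ratio of -1.41 [-3.43, 0.15]. Intervals were above 0 at 8 genes (Emx1, En2, Irx2, Irx5, Lhx5, Pax3, Six4 and Six5) and below 0 at none, where 24.3% of all genes were above and 2.03% below. Set against the median of all genes, the intervals of 2 (Pax3 and Six4) were above it and that of Dlx5 below it, where 8.21% and 6.13% of all genes were. Six4 had 126 and 285 tags, a ratio of 0.64 [0.34, 0.96], and Emx1 had 16 and 43 tags, a ratio of 0.84 [0.04, 1.82].

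In all, 4 genes had intervals above 0 in mESCs and below 0 in PILECs, namely En2, Irx2, Irx5 and Pax3, and none had the opposite, where 6.96% and 0.136% of the 16156 genes with at least 10 tags in both stages did. The 4 genes are thus close to the share of all genes. En2 had ratios of 0.60 [0.17, 1.06] and -0.42 [-0.68, -0.17]. Irx2, with 20.1, 31.0, 28.7 and 23.3 RPM, had 0.61 [0.12, 1.14] and -0.30 [-0.49, -0.11]. Irx5, with 20.6, 29.3, 42.0 and 35.4 RPM, had 0.50 [0.01, 1.03] and -0.25 [-0.40, -0.09]. Its chromosome, 8, took 6.61% of the input of wt mESCs and 7.55% of that of menin-null mESCs, a log2 ratio of 0.19. Input within 50 kb of the Irx5 start gave 0.01 [-0.24, 0.25]. The part of the chromosome 8 input in the Irx5 value was not tested.

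**Figure D4:**
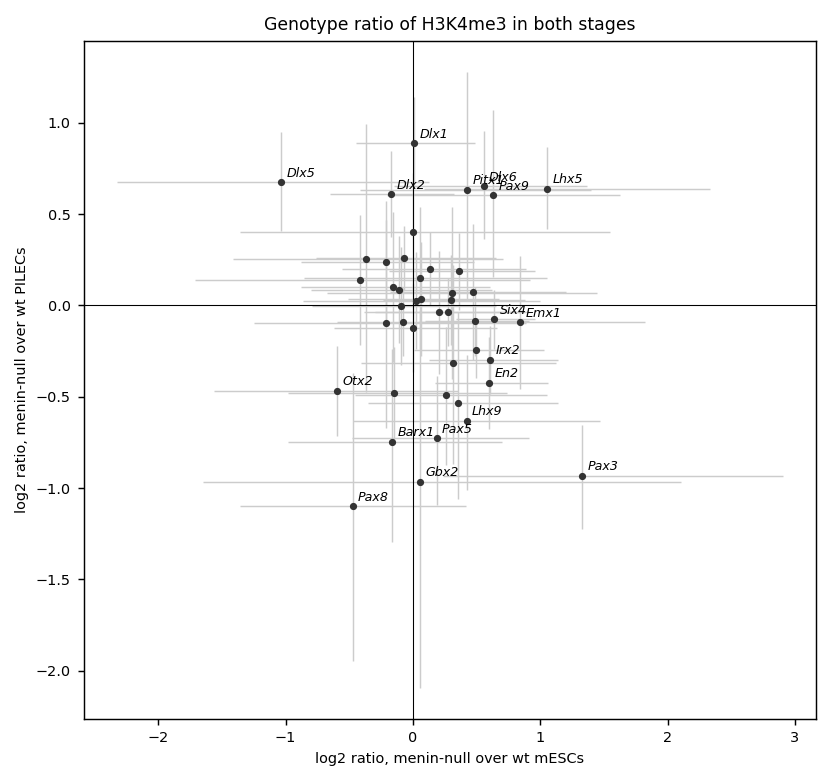
Log2 ratio of menin-null over wt H3K4me3 in mESCs (horizontal) and in PILECs (vertical) for the 45 genes, with 95% counting intervals as grey lines and names where either ratio is far from 0. Pax3 stands alone at 1.33 and -0.93, and the mESC intervals are wider than those of PILECs.

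From mESCs to PILECs the group shifted in both directions. In wt cells 9 of the 45 genes were at least 2-fold lower in PILECs and 5 were higher, where 20.4% and 6.65% of all genes were. In menin-null cells 13 were lower and 6 higher, where 22.7% and 7.81% of all genes were. The medians were -0.31 and -0.48, and -0.14 and -0.33 over all genes. These comparisons depend on the input. At the 45 starts the median input was 2.35 RPM in wt mESCs and 0.947 RPM in wt PILECs, and 2.14 and 0.883 RPM in the menin-null cells. Dividing by input turned the medians to 0.74 and 0.29. It left 3 lower and 18 higher in wt cells and 6 lower and 12 higher in menin-null cells. The direction of the group median thus depends on this choice. Over all genes the median input also fell, from 1.65 to 0.947 RPM in wt and from 1.60 to 0.938 RPM in menin-null cells. Shares of all genes after division by input were not computed. The divided counts thus cannot be read as a trait of the 45 genes.

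Pax3 had the highest wt value, 2.36 [1.48, 3.87], and in menin-null cells 0.10 [-0.45, 0.77], or 0.77 after division by input. Lhx5 (1.70 and 1.29 in wt and menin-null cells), Lhx1 (1.05 and 1.38) and Six3 (1.12 and 1.52) were at least 2-fold higher in PILECs in both genotypes, and these values held their direction under division by input. At the 5' end of Six3 (chr17:86012948) the values were 0.28 [-0.57, 1.59] and 0.71 [-0.03, 1.76], under 2-fold in both genotypes. Irx5 was 2-fold higher in wt cells, at 1.00 [0.62, 1.47] or 0.57 in a window of 2 kb, and had 0.26 [-0.03, 0.59] in menin-null cells. Under other settings the Irx5 values reached 2.42 in wt and 1.25 in menin-null cells. Otx2, just under 2-fold in wt cells, had 1.00 [0.42, 1.77] and 1.13 [0.53, 1.93] at the start used. Its second group of starts (chr14:49281607) went the other way, with -0.62 [-1.13, 0.00] and -0.44 [-1.04, 0.28], intervals that included 0. Lhx6, a gene of cortical interneurons, had 0.52 and 1.08 on levels of 4.52, 3.41, 7.03 and 7.75 RPM. A window of 5 kb gave -0.09 and 0.04 at Lhx6, and its flanks gave -0.91 [-1.51, -0.22] in menin-null cells. Dlx5 had 0.54 [-0.12, 1.46] and 2.25 [1.51, 3.39] on 11 menin-null mESC tags.

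Lower in PILECs by at least 2-fold in both genotypes were Barx1 (-1.06 and -1.64), Irx4 (-1.22 and -2.11), Lhx3 (-1.99 and -1.37), Lhx8 (-1.46 and -2.09), Pax8 (-1.89 and -2.51) and Pitx1 (-1.83 and -1.63). Division by input brought most of these nearer to 0. Pax8 alone (-1.46 and -1.31) stayed at least 2-fold lower in both genotypes. Barx1 (-0.48 and -1.05), Irx4 (-0.01 and -1.31) and Lhx8 (-0.62 and -1.18) did so in menin-null cells, Pitx1 (-1.18 and -0.52) in wt cells, and Lhx3 (-0.93 and -0.23) in neither. Lhx3, a pituitary and motor neuron gene, had 16, 18, 32 and 36 tags, or 6.58, 5.12, 1.70 and 2.04 RPM. Lhx8, a gene of cholinergic neurons, had 9.87, 12.5, 3.68 and 2.94 RPM. At the 5' end of Lhx8 the ratios were 0.54 and 1.92 instead, but on few mESC tags. The flanks of the start used, which span that end, held 7 and 3 tags in wt and menin-null mESCs. Dlx1 (-1.26, but 0.31 at its 5' end), Pax1 (-1.07), a gene of the sclerotome, and Six6 (-1.18), a gene of the eye, passed 2-fold in wt cells. Pax1 had 6.17, 5.40, 3.09 and 2.88 RPM, and Six6 had 11.9, 10.8, 5.38 and 5.77 RPM. En2 (-1.63), Gbx2 (-1.69), Irx6 (-1.15), Msx2 (-1.25), Pax5 (-1.25), Pitx3 (-1.18) and Six4 (-1.26) passed it in menin-null cells. After division by input Six6 was still at least 2-fold lower in wt cells (-1.02), and Gbx2 (-1.08) and Msx2 (-1.20) in menin-null cells, while the others named here were not. At the 5' starts of Pax5 (chr4:44724318), on 16, 21, 25 and 13 tags, both genotypes passed 2-fold without this division. The values there were -2.34 [-3.27, -1.30] in wt and -2.98 [-4.14, -1.96] in menin-null cells. Whether these ratios differ between genotypes was not tested, since each is a single pair of libraries, and they share these libraries with the genotype ratios above.

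**Figure D5:**
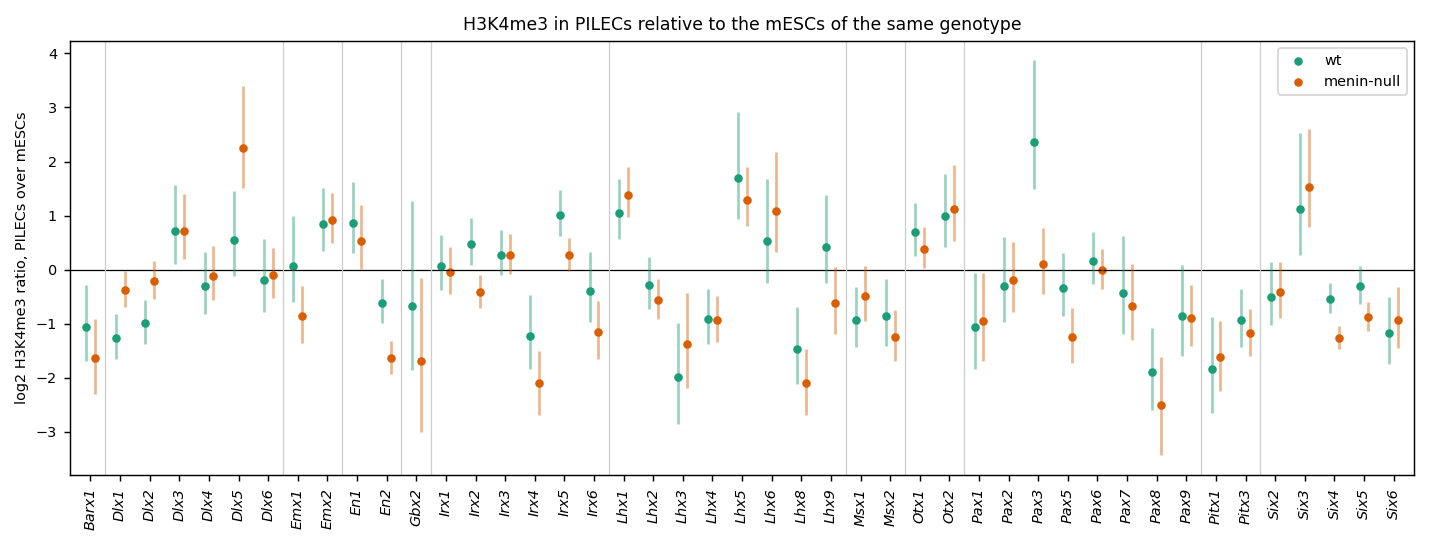
Log2 ratio of H3K4me3 in PILECs over mESCs of the same genotype (green wt, orange menin-null) with 95% counting intervals for the 45 genes by family. Pax3 is at 2.36 in wt and 0.10 in menin-null cells, and Pax8 is lowest in menin-null cells at -2.51.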

How the data were processed

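The authors aligned 36-bp Illumina reads to mm9, kept unique locations and deposited 1 line per tag, with its position and a score, in BED format, without normalization. The deposited score was not used. Some tags list more than 2 mismatches and were kept. Tags were moved 125 bp to the middle of the 250-bp fragment and counted around the start with the most H3K4me3 over the 4 libraries, among GENCODE NCBIM37 starts, in Python 3.11.15. Libraries were scipy 1.17.1, numpy 2.4.6, matplotlib 3.10.9 and pandas 2.3.3. A gene was compared at 10 or more tags in the 2 libraries. Input for the marked call came from 5 kb around the start. The ratios and intervals, but not the counting of tags, were tried on simulated counts with known changes. Those counts held counting error only, so variation between libraries was not covered. The genes and lists were chosen with earlier results of these data known. All 45 genes are accounted for. Levels in all 4 libraries are given for those at least 2-fold apart (up to the 12 largest a comparison), the 5 highest per stage, those with intervals on opposite sides of 0 in the 2 stages, and the extremes of each family. The promoters printed were the 2 lowest and the 2 nearest 0 among marked genes. Alternatives changed duplicates, scaling, window, start, shift, mismatches, depth, added tags, minimum tags, fold, input and neighbouring starts. A 5 kb window was added after seeing the data. Microarray and other data of the study were not used here.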

Additional observations from a re-analysis of the deposited data

Results flagged for a closer look

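At 4 genes the ratio of menin-null to wt H3K4me3 had an interval above 0 in mESCs and below 0 in PILECs, 1 library per condition, and the difference between the stages was not tested. Of all genes 6.96% had such intervals, a share near that of these 4 among 45. The log2 ratios were 1.33 and -0.93 at Pax3, 0.60 and -0.42 at En2, 0.61 and -0.30 at Irx2, and 0.50 and -0.25 at Irx5, in mESCs and PILECs. The median of all genes was 0.21 in mESCs, and only the mESC interval of Pax3 lies above that median. It rests on 7 and 28 tags. Under other settings the ratio fell as low as 0.39, and the mESC flanks of Pax3 gave -1.41 [-3.43, 0.15].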

How the results depend on the processing

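No paired analysis was possible because each condition has 1 library. Of the ratios of single genes under the alternatives, 1626 stayed inside their counting interval, 167 left it, and 7 that were 2-fold or more changed sign. Counts given here are of the 45 genes at least 2-fold lower or higher unless Hox genes are named. The cause of each change was not tested unless stated, and shares of all genes after division by input were not computed. In mESCs, menin-null over wt, the count of 1 lower became 0 with a 2 kb window, a 5 kb window, unshifted tags, tags with at most 2 mismatches, thinned libraries, at least 30 tags (fewer genes tested) or division by input, and 2 at the 5' end of the gene or at 1.5-fold (7 higher). The 2 higher became 1 without duplicates, with tags near starts as the scale or with a 5 kb window, and 5 after division by input. Of the Hox genes in mESCs, 4 higher became 2 without duplicates, thinned or with tags near starts as the scale, which also gave 1 lower. In PILECs the 1 lower became 2 with a 2 kb or 5 kb window, 0 after division by input and 6 at 1.5-fold. The 0 higher became 1 when thinned (1 Hox gene too) or divided by input, and 7 at 1.5-fold. Thinning gave 0.41 at Pax8. From mESCs to PILECs in wt cells the 5 higher became 3 without duplicates, 8 with a 2 kb window, 9 with a 5 kb window, 18 after division by input (3 lower, median 0.74) and 10 at 1.5-fold (17 lower). In menin-null cells the 13 lower became 8 with tags near starts as the scale or a 5 kb window, 6 after division by input (12 higher, median 0.29) and 21 at 1.5-fold. The 5' end of the gene turned the wt ratio of Dlx1 to 0.31 and those of Lhx8, on few mESC tags, to 0.54 and 1.92. Division by input turned Pax1 in wt cells to 0.08 and Irx6 in menin-null cells to 0.022. A 5 kb window turned Pitx3 in menin-null cells to 0.061. In the flanks in PILECs the 0 higher became 2 with tags near starts as the scale and 1 without other starts. The median genotype ratio of the 45 genes ran from -0.11 to 0.25 in mESCs and from -0.07 to 0.09 in PILECs, and that of the Hox genes in PILECs from -1.38 to -1.19, while the number marked ran from 27 to 40 in wt mESCs and from 37 to 42 in wt PILECs. Depth limits the mESC ratios, where 13 of the 45 genes had at least 100 tags.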
